A study of Mus musculus with 6 samples.

Results

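The genes described here were 10 members of the Notch pathway among the 19349 genes of the count tables: the 4 ligands Jag1, Jag2, Dll1 and Dll4, the 4 receptors Notch1, Notch2, Notch3 and Notch4, and the 2 transcriptional targets Hes1 and Hey1. They were chosen by name, with earlier results of these data known, and each of the 10 had a row in all 6 tables. All 6 libraries came from male C57BL/6J mice, 8 weeks old at purchase, that ate a high-fat diet (HFD) for 24 weeks, a diet model of nonalcoholic steatohepatitis (NASH). During the final 8 weeks, 3 of them were given vehicle (DMSO, labelled Control) and 3 were given ginkgetin, a plant biflavone, at 10 mg/kg/day by the intragastric route. Nonparenchymal liver cells were profiled by 10x Genomics single-cell RNA sequencing, in which each unique molecular identifier (UMI) marks 1 captured RNA molecule. The question was in which liver cells each Notch gene was measured, and whether its level differed between vehicle and ginkgetin. No chow-fed library was analysed here, so both groups are HFD livers. The labels name no animal for a library, and p-values therefore measure the spread between these 6 libraries.

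Notch signalling passes between touching cells. A Jagged or Delta-like ligand on one cell pulls on a Notch receptor of its neighbour, the receptor is cut, and its inner part enters the nucleus, where it joins the DNA-binding protein RBPJ and switches on repressor genes of the Hes and Hey families. In liver, Jagged1 and Notch2 are known for the formation of bile ducts, Delta-like ligands and Notch1 for the identity of vessels, and Notch3 for pericyte-like cells such as hepatic stellate cells.

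The 6 libraries held 33168 barcodes, with total counts between 13128697 and 61796882 UMIs, and 27544 cells were kept. Cells fell into classes named from marker genes: 8004 endothelial-like, 4263 macrophage-like, 1730 dendritic-like, 558 cholangiocyte-like and 180 stellate-like cells carry the results. The endothelial-like cells were divided by subset markers into 4827 sinusoidal-like, 1389 periportal-like, 1111 pericentral-like and 677 vascular-like cells. The Notch genes were left out of the genes used for clustering. Both replicate 3 libraries stood apart: they shared at most 1 barcode with any library of replicates 1 and 2, which shared up to 85 with each other, and 1236 genes were at 0 in all 4 libraries of replicates 1 and 2 and above 0 in both replicate 3 libraries. Each group held 1 such library, and tests with the replicate number as a block are given wherever they changed a call.

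Levels are CPM: the gene's UMIs in a class of a library, divided by all UMIs of that class and library and scaled to 1e6. Each gene is compared between classes and never with another gene. The classes came from clustering these same cells, so the order of classes is a description without a test. Shares of cells with a UMI were taken after each cell was thinned to 1000 UMIs. Free RNA in droplets gives some UMIs to cells that do not express a gene.

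**Figure D1:**
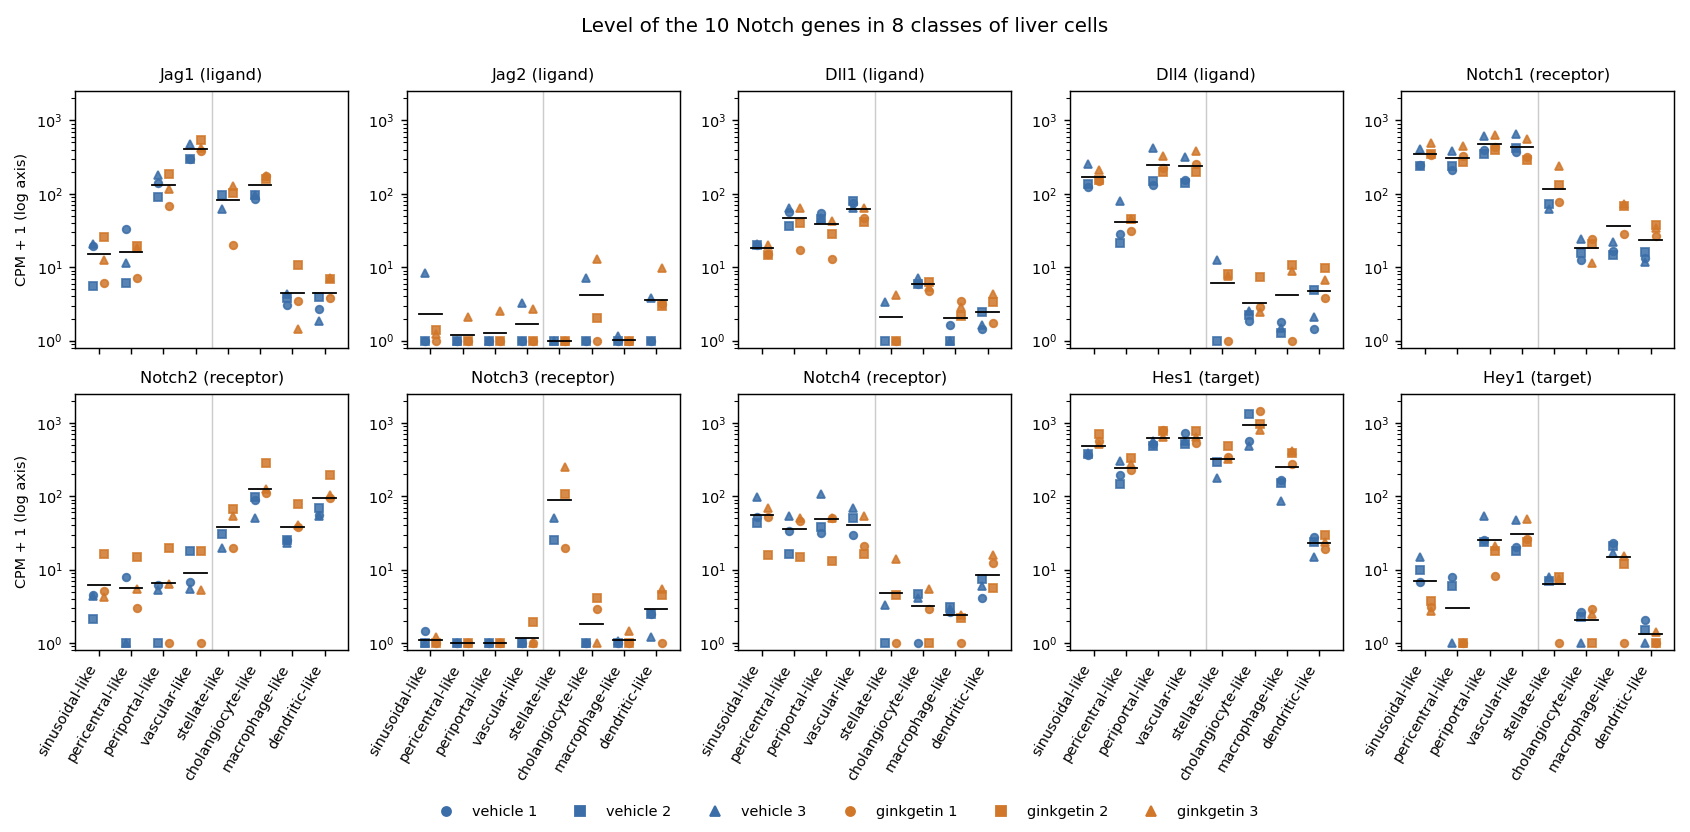
Level of each Notch gene (CPM + 1, log axis) in 4 endothelial-like subsets (left of the grey line) and 4 other classes. Each symbol is 1 library (blue vehicle, orange ginkgetin; circle, square and triangle for replicates 1, 2 and 3), and the black bar is the mean over libraries. Dll4, Dll1 and Notch4 are high left of the line, Notch3 is high in stellate-like cells, and Notch2 is higher right of the line than left of it.

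Jag1, which encodes the ligand Jagged1, had 3708 UMIs in the kept cells, of which endothelial-like cells held a mean of 62.9% ± 16.5 (SD, n = 6 libraries) and cholangiocyte-like cells 21.8% ± 12.6. The gene lies at chromosome 2, 137081456 to 137116644, on the minus strand of GRCm38. Its level was 401.5 ± 99.8 CPM in vascular-like cells, 130 ± 42.6 in cholangiocyte-like cells, 130 ± 47.9 in periportal-like cells and 80.6 ± 41.8 in stellate-like cells (n = 5 libraries there, 6 elsewhere). Pericentral-like and sinusoidal-like cells were at 14.9 ± 10.2 and 13.97 ± 8.27 CPM. Within endothelium the order vascular, periportal, then the other 2 subsets was found in 6 of 6 libraries. The step from periportal-like to vascular-like cells was 1.68 ± 0.49 on the log2(CPM + 1) scale. The periportal level depended on how the endothelial-like cells were divided: it was 56.9 ± 25.6 CPM with Notch genes kept in clustering, 75.5 ± 31.7 with the highest doublet scores removed and 36.9 ± 15.2 with coarser sub-clusters, which put the step at 2.64, 2.42 and 3.11. As divided here, periportal-like cells exceeded cholangiocyte-like cells in 3 of 6 libraries, but in 0 of 6 with Notch genes kept or with coarser sub-clusters. Sinusoidal and pericentral levels did not separate (4 of 6). A Jag1 UMI was found in 31.1% ± 11.9 of vascular-like cells after thinning, against 0.282% ± 0.155 of T cell-like cells, taken here as the background. Without thinning, the shares in vascular-like cells were 69.8% in vehicle and 74.9% in ginkgetin. Median depths were 4594 and 3746 UMIs in vascular-like cells and 3391 and 3443.5 UMIs in T cell-like cells, vehicle first. Dendritic-like and macrophage-like cells, at 0.121% and 0.527% of cells with a UMI, lay near that background.

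Dll4, the Delta-like ligand of arteries and sprouting vessels, was the most endothelial of the 10 by share of its UMIs: 95.1% ± 2.21 of 5603 UMIs lay in endothelial-like cells. Periportal-like and vascular-like cells were at 242 ± 114 and 241 ± 94.8 CPM and did not separate (periportal higher in 2 of 6 libraries). Sinusoidal-like cells were at 171 ± 49.4 CPM and pericentral-like cells at 40.9 ± 20.6. Pericentral-like cells were lowest of the 4 subsets in 6 of 6 libraries, and sinusoidal-like cells exceeded them 4.17-fold by the ratio of means as divided here, and 2.40-fold with each library clustered alone. Outside endothelium the highest means were 12.7 ± 8.13 CPM in plasmacytoid dendritic (pDC-like) cells (n = 4 libraries) and 5.01 CPM in stellate-like cells. A Dll4 UMI was found in 22.4% ± 11.3 of periportal-like and 3.82% ± 2.35 of pericentral-like cells after thinning, against 0.217% ± 0.313 of T cell-like cells. Without thinning, the periportal shares were 47.9% in vehicle and 54.4% in ginkgetin and the pericentral shares 18.4% and 15.4%, at median depths of 2793, 2606.5, 3033 and 2952 UMIs.

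Dll1 (chromosome 17, 15367354 to 15376872, minus strand), a further Delta-like ligand, was distributed differently over the same subsets. Its level was 60.6 ± 15.4 CPM in vascular-like, 45.4 ± 18.5 in pericentral-like, 37.5 ± 15.2 in periportal-like and 17.5 ± 2.84 in sinusoidal-like cells. Pericentral-like cells exceeded sinusoidal-like cells in 6 of 6 libraries and periportal-like cells in 5 of 6. By mean level, Dll1 was thus lowest in the sinusoidal-like subset and Dll4 in the pericentral-like subset. Endothelial-like cells held 85.3% ± 3.49 of the 1037 Dll1 UMIs, and outside endothelium the highest means were 6.44 ± 2.64 CPM in pDC-like cells (n = 4) and 4.91 ± 0.772 CPM in cholangiocyte-like cells.

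Jag2 (chromosome 12, 112907819 to 112929776, minus strand), the other Jagged ligand, was scarcely detected at this depth. The kept cells held 95 Jag2 UMIs in 82 cells. The highest means were 4.57 ± 6.14 CPM in type 1 conventional dendritic (cDC1-like) cells and 3.15 ± 4.84 CPM in cholangiocyte-like cells, and both were smaller than their spread. Dendritic-like cells held 42 of the UMIs, 13 in vehicle and 29 in ginkgetin, and stellate-like cells held 0. Vehicle 3 held all 13 and ginkgetin 3 held 21 of the 29, and these are the libraries of the separate barcode set. In cDC1-like cells the libraries ran from 0 to 16.2 CPM. Vehicle 1 and vehicle 2 gave 0 Jag2 UMIs in every named class, and the gene did not pass edgeR's filter in any class. DESeq2, which has no such filter here, gave it no adjusted p.

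**Figure D2:**
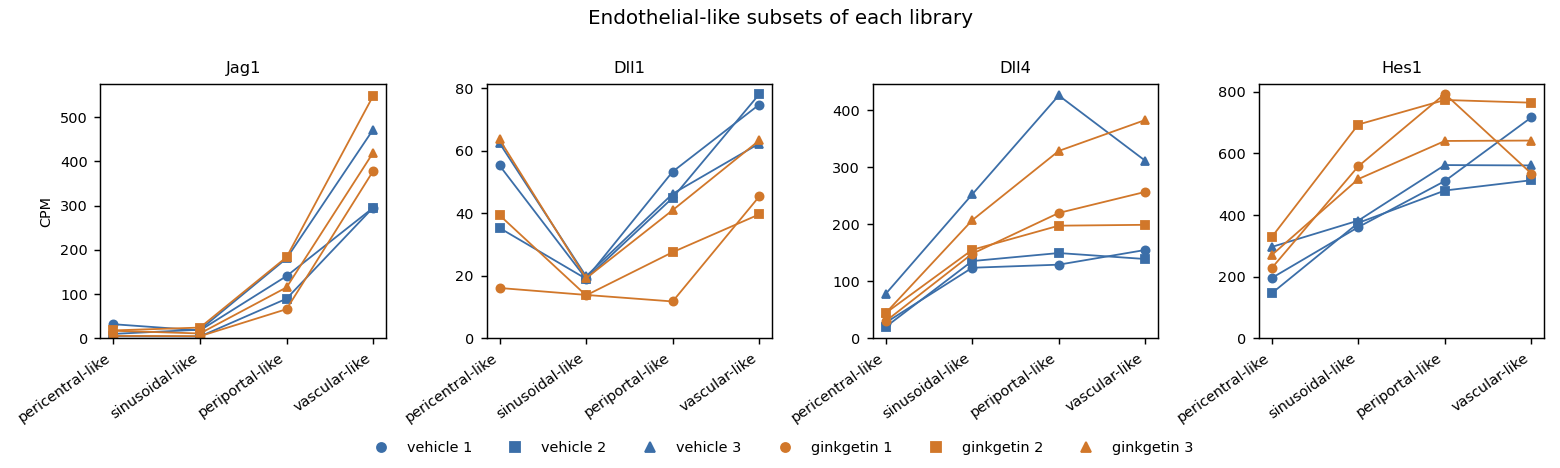
CPM (linear axes) of Jag1, Dll1, Dll4 and Hes1 in the 4 endothelial-like subsets. Lines join the subsets of 1 library (blue vehicle, orange ginkgetin; symbols for replicates) and stand for no order in time. Jag1 rises to vascular-like cells in 6 of 6 libraries, Dll4 and Hes1 are lowest in pericentral-like cells in 6 of 6, and Dll1 is lowest in sinusoidal-like cells in 5 of 6.

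Notch1 (chromosome 2, 26457903 to 26516663, minus strand), the receptor best known in arteries and T cells, had 15697 UMIs, with 70.7% ± 10.3 in endothelial-like cells. Periportal-like cells were at 469 ± 118 CPM, vascular-like cells at 433 ± 143, sinusoidal-like cells at 344 ± 96.3 and pericentral-like cells at 311 ± 89.5. Periportal-like cells exceeded sinusoidal-like and pericentral-like cells in 6 of 6 libraries, whereas periportal and vascular levels did not separate (4 of 6). Outside endothelium, stellate-like cells were at 115 ± 74.7 CPM, pDC-like cells at 76.8 ± 23.9 (n = 4) and T cell-like cells at 61.3 ± 20.9. Macrophage-like and dendritic-like cells were at 35.9 ± 26.0 and 22.3 ± 11.1 CPM, and cholangiocyte-like cells at 17.1 ± 5.59.

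Notch4, the receptor known as endothelial, had 76.5% ± 13.2 of its 1662 UMIs in endothelial-like cells. It was at 54.0 ± 27.4 CPM in sinusoidal-like, 47.5 ± 31.6 in periportal-like, 39.4 ± 21.2 in vascular-like and 34.5 ± 16.9 in pericentral-like cells. Sinusoidal-like cells exceeded pericentral-like cells in 6 of 6 libraries (ratio of means 1.57), and of the neighbours in this order none differed in the same direction in all 6. With the study's range for cells applied to UMIs and not to genes per cell, it was 4 of 5 libraries (1.17). Dendritic-like cells, at 7.56 ± 4.55 CPM, were the next class, and pericentral-like cells lay above them in 6 of 6 libraries. Among dendritic-like cells the cDC1-like cells were at 14.03 ± 8.45 CPM.

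Notch2 (chromosome 3, 98013527 to 98150361, plus strand), the receptor of bile duct formation, was instead low in endothelium. Endothelial-like cells were at 5.57 ± 5.10 CPM. Cholangiocyte-like cells were at 125 ± 80.6 CPM, B cell-like cells at 118 ± 59.8, monocyte-like cells at 118 ± 81.6 and dendritic-like cells at 94.3 ± 52.4. Cholangiocyte-like cells exceeded B cell-like cells in 3 of 6 libraries, so the leading classes did not separate. Macrophage-like and stellate-like cells were at 37.4 ± 20.6 and 37.1 ± 21.2 CPM.

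Notch3 (chromosome 17, 32120820 to 32166852, minus strand), the receptor of pericytes and stellate cells, was highest in stellate-like cells at 88.6 ± 94.8 CPM (n = 5). This level was 34.7 ± 44.3 CPM (n = 4) with the highest doublet scores removed and 41.2 ± 36.3 CPM (n = 4) with the study's range for cells applied to UMIs and not to genes per cell, still the highest of the classes compared there. The next classes were pDC-like cells at 7.81 ± 5.25 CPM (n = 4) and all dendritic-like cells at 1.88 ± 1.80 CPM, and endothelial-like cells were at 0.0791 CPM. Stellate-like cells exceeded dendritic-like cells in 5 of 5 libraries, and in 3 of 4 and 2 of 3 under those 2 alternatives. Of 195 Notch3 UMIs, 132 lay in the stellate-like cells of these 5 libraries. The stellate-like cells were named from 9 markers, none of which was at 0, with a summed level of 30556 to 42675 CPM.

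Hes1 (chromosome 16, 30064384 to 30067796, plus strand), a repressor switched on by Notch and also by other signals, had its highest mean in cholangiocyte-like cells, 924.5 ± 394 CPM. Cholangiocyte-like cells exceeded periportal-like cells in 5 of 6 libraries as divided here. The count was 4 of 6 with no filter on cells, with Notch genes kept in clustering and with each library clustered alone, and 6 of 6 with coarser sub-clusters. Vascular-like cells exceeded cholangiocyte-like cells in vehicle 1 (717 against 556 CPM) and vehicle 3 (561 against 487 CPM). Periportal-like and vascular-like cells were at 627 ± 133 and 622 ± 103 CPM and did not separate (3 of 6 libraries each way). Sinusoidal-like cells were at 481 ± 133, stellate-like cells at 319 ± 109, macrophage-like cells at 245 ± 133 and pericentral-like cells at 244 ± 67.4 CPM. Pericentral-like cells were again the lowest endothelial subset in 6 of 6 libraries. Dendritic-like cells were far lower at 22.2 ± 5.58 CPM. Hes1, Dll4 and Notch1 were thus each lower in the pericentral-like than in the periportal-like subset in 6 of 6 libraries.

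Hey1 (chromosome 3, 8663359 to 8667256, minus strand), a related repressor known from arterial endothelium, had 1149 UMIs, nearly all in endothelial-like and macrophage-like cells, whose shares swung between the libraries. Macrophage-like cells held 748 of them in vehicle and 40 in ginkgetin, and endothelial-like cells 151 in vehicle and 164 in ginkgetin. Vascular-like and periportal-like cells were at 29.7 ± 13.9 and 23.9 ± 15.6 CPM, macrophage-like cells at 13.9 ± 7.91, sinusoidal-like cells at 5.89 ± 4.86 and pericentral-like cells at 1.99 ± 3.14. Periportal-like cells exceeded macrophage-like cells in 6 of 6 libraries as divided here. With coarser sub-clusters they were at 9.91 ± 6.72 CPM and with Notch genes kept in clustering at 14.1 ± 18.7 CPM, and each time exceeded macrophage-like cells in 2 of 6. In pericentral-like cells Hey1 had 4 UMIs in vehicle and 0 in ginkgetin.

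Across 80 sums of a class in a library (14 classes), the profiles of the endothelial members ran together. Pearson's r of log2(CPM + 1) was 0.872 between Dll4 and Dll1, 0.870 between Dll4 and Notch4 and 0.855 between Dll4 and Notch1, and -0.527 between Dll4 and Notch2. These sums share libraries and depth, so r is a description. The genes most like each member in profile were Bcam (r = 0.871) for Jag1, Tmem2 (r = 0.912) for Dll1, Galnt15 (r = 0.950) for Dll4, Snrk (r = 0.917) for Notch1, Map3k5 (r = 0.801) for Notch2, Gdf2 (r = 0.920) for Notch3, Hoxa5 (r = 0.881) for Notch4, App (r = 0.904) for Hes1 and Adgrg6 (r = 0.751) for Hey1, out of 12488 genes with a mean of at least 10 CPM in a class. Jag2 did not reach that level and was not compared. For Notch4 the second most alike gene was Dll4 itself. Behind these stood Ptpn14 and Frk for Jag1, Eva1c and Afap1l1 for Dll1, Mmrn2 and Fgd5 for Dll4, Ttc28 and Kctd10 for Notch1, Tnfaip8 and Celf2 for Notch2, Tbx20 and Astn2 for Notch3, Clec1a for Notch4, Laptm4a and Trim47 for Hes1 and Ch25h and Plagl1 for Hey1, with r between 0.736 and 0.945.

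The promoters of Dll4 and Notch4, whose profiles ran together, and of Jag1, whose profile also took in cholangiocyte-like and stellate-like cells, are shown because they belong to the members that separate the classes. The sequences are from RefSeq on GRCm38.p6, run 5′ to 3′ on the gene's strand and end at the base before the start of the gene. Capitals mark the letters GGAAG, a core of sites bound by ETS factors, or their reverse complement CTTCC.
Dll4, chr2:119325534-119325783, plus strand: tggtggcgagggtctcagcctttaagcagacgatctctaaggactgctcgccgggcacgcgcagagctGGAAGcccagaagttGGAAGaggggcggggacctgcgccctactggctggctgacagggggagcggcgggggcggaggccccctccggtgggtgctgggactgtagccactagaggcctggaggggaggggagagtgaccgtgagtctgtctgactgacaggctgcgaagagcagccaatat
Notch4, chr17:34564045-34564267, plus strand: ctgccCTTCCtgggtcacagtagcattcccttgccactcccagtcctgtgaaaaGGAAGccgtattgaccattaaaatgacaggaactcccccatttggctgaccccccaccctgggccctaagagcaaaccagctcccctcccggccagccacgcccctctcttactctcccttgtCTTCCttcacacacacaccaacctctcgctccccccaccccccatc
Jag1, chr2:137116645-137116770, minus strand: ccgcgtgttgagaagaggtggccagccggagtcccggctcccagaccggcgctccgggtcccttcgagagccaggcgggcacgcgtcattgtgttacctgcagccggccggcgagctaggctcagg
The ETS core, searched on both strands, occurred 2 times in the Dll4 window of 250 bases, 3 times in the Notch4 window of 223 bases and 0 times in the Jag1 window of 126 bases. These counts are not comparable, because the windows differ in length. It was present in 4 of the 9 windows of the 8 members that RefSeq's table matched (Dll1, Dll4, Notch2 and Notch4), and in 64.1% of 32851 windows of up to 250 bases of all genes. The RBPJ core TGGGAA or its reverse complement TTCCCA was in 0 of the 9 member windows and in 21.6% of all windows. The letters of the 2 motifs can overlap. Hes1 and Hey1 were not matched. On GRCm38, Dll4 lies at chromosome 2, 119325784 to 119335962, on the plus strand, and Notch4 at chromosome 17, 34564268 to 34588503, on the plus strand. All 10 members are protein-coding genes.

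The comparison of ginkgetin with vehicle used sums of UMIs per library and class, tested by edgeR's quasi-likelihood method over all genes of a class. A gene was called where the Benjamini-Hochberg adjusted p was under 0.05 and the fold was over 2. Members enter a class's test only with enough counts: 8 of 10 in endothelial-like, 5 in macrophage-like, 5 in stellate-like, 4 in cholangiocyte-like and 4 in dendritic-like cells. Of these 26 tests 1 passed, Notch1 in macrophage-like cells, and 9 passed with the replicate number as a block. Of all genes without the block, the share called was 0.689% in endothelial-like, 0.0195% in stellate-like, 0.176% in cholangiocyte-like, 9.48% in macrophage-like and 0% in dendritic-like cells. With the block these shares were 4.17%, 3.04%, 2.45%, 15.2% and 2.06% in the same order, a larger share in each of the 5 classes. DESeq2 called 2.56%, 0.544%, 1.31%, 13% and 1.99% of the genes to which it gave an adjusted p.

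**Figure D3:**
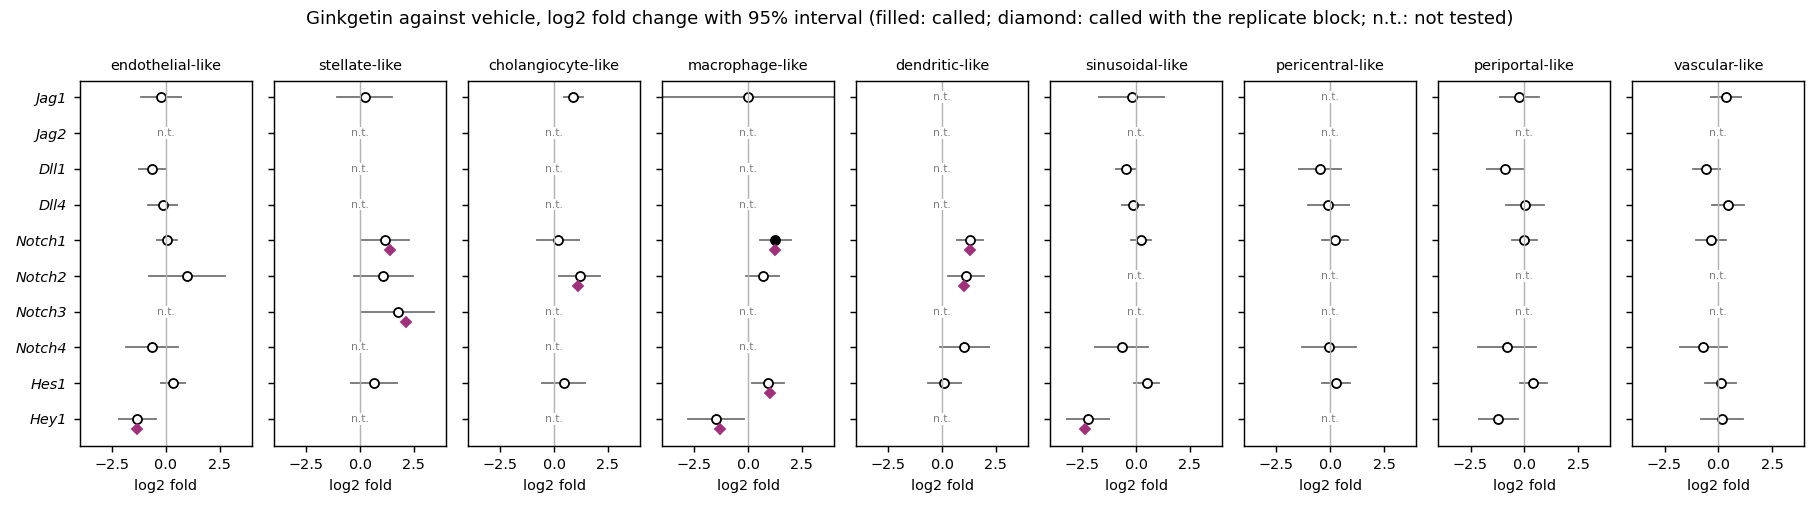
Log2 fold change of ginkgetin against vehicle by edgeR for each Notch gene (rows) in 5 classes and 4 endothelial-like subsets (panels), with 95% intervals. The only filled point, a gene called without a block, is Notch1 in macrophage-like cells, and purple diamonds mark the 10 gene and class pairs called with the replicate number as a block. The interval of Jag1 in macrophage-like cells runs past the axis, and n.t. means not tested.

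In endothelial-like cells none of the 8 tested members was called by edgeR or by DESeq2, and 2 had an unadjusted p under 0.05 by edgeR (1 by DESeq2). Among the ligands, Dll1 was at 37.1, 32.6 and 33.4 CPM in vehicle and 16.0, 22.9 and 37.2 CPM in ginkgetin, with replicate 1 first and replicate 3 last, as in every such list here. The ginkgetin 3 library was the highest of the 6, so the groups overlapped, and the log2 fold change was -0.63 (95% interval -1.24 to -0.01, adjusted p = 0.347). Dll4 was at 119, 124 and 287 CPM in vehicle and 146, 151 and 216 CPM in ginkgetin. Both replicate 3 libraries were the highest of their group, and the fold change was -0.15 (-0.81 to 0.52, adjusted p = 0.893). Jag1 also overlapped between the groups, with a log2 fold change of -0.22 (-1.15 to 0.72).

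The endothelial receptors did not separate the groups. Notch1 was at 287, 278 and 480 CPM in vehicle and 347, 337 and 508 CPM in ginkgetin, with a log2 fold change of 0.06 (95% interval -0.42 to 0.53). This interval lies within a fold of 2 in either direction. Notch4 was at 42.3, 38.4 and 92.2 CPM in vehicle and 47.8, 14.1 and 59.8 CPM in ginkgetin, with ginkgetin 2 lowest and a fold change of -0.64 (-1.85 to 0.58).

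Hes1 and Hey1, the targets, had fold changes of opposite sign in endothelial-like cells. Hes1 was at 419, 380 and 439 CPM in vehicle and 536, 660 and 502 CPM in ginkgetin. The groups did not overlap, yet the log2 fold change of 0.33 (-0.24 to 0.90, adjusted p = 0.628 by edgeR) was not called. Summed CPM of 8 immediate early genes, which dissociation of tissue also raises, was 1853 to 5882 in vehicle and 4537 to 5911 in ginkgetin, and their part in the Hes1 values was not tested. Hey1 was at 11.3, 11.7 and 25.8 CPM in vehicle and 3.93, 6.95 and 10.1 CPM in ginkgetin, so the groups did not overlap either. Its log2 fold change was -1.33 ± 0.35 (SE, adjusted p = 0.172), and -1.36 ± 0.23 (adjusted p = 0.0142) with the replicate block, where it was called. Macrophage markers in these cells summed to 227.5 to 401 CPM in vehicle and 63.5 to 179 CPM in ginkgetin, and mesothelial markers to 27.4 to 49.8 and 3.97 to 4.99 CPM. The endothelial markers themselves summed to 7974 to 10963 CPM in vehicle and 12728 to 17063 CPM in ginkgetin. The part of these markers in the Hey1 values was not tested.

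Within the endothelial-like subsets 0 of 26 member tests were called by edgeR, with 4 at an unadjusted p under 0.05. DESeq2 and the replicate block each called 1, Hey1 in sinusoidal-like cells. Of all genes, 0.978% were called in sinusoidal-like, 0.0829% in pericentral-like, 0.0134% in periportal-like and 0% in vascular-like cells, and 4.78%, 3.47%, 1.95% and 1.2% with the block. DESeq2 called 2.47%, 0.848%, 0.852% and 0.411% in the same order. Hey1 in sinusoidal-like cells was at 5.78, 8.98 and 14.1 CPM in vehicle (50 UMIs) and 2.06, 2.72 and 1.75 CPM in ginkgetin (26 UMIs). Each ginkgetin library lay below each vehicle library. Its log2 fold change was -2.23 ± 0.42 with an adjusted p of 0.0706, and -2.37 ± 0.43 with an adjusted p of 0.0102 with the replicate block. Macrophage markers, from a class that also holds Hey1, summed to 230 to 439 CPM in these vehicle cells and 62.4 to 194 CPM in ginkgetin, mesothelial markers to 14.6 to 44.0 and 1.97 to 2.58 CPM, and their part was not tested. After thinning, the shares of sinusoidal-like cells with a Hey1 UMI were 0.463% ± 0.201 in vehicle and 0.405% ± 0.145 in ginkgetin, and they overlapped (7 of 1310 cells and 15 of 3502 cells). The same shares without thinning were 3.67% ± 2.99 and 0.813% ± 0.418, and the median cell held 2818 UMIs in vehicle and 2496 in ginkgetin. In T cell-like cells the thinned shares were 0.0388% and 0%, and too few Hey1 UMIs remained at the thinned depth to read a change from them.

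The sinusoidal-like cells of the 2 groups differed in makeup. A sub-cluster of 594 cells led by Esm1, Kcne3 and Angpt2, genes known from sprouting tip cells, made up 32.1%, 23.9% and 19.8% of the sinusoidal-like cells of vehicle 1 to 3 and 8.07%, 6.31% and 5.28% of those of ginkgetin 1 to 3. Hey1 in that sub-cluster was at 7.25, 15.2 and 28.8 CPM in vehicle and 0, 0 and 4.11 CPM in ginkgetin, from 6, 4 and 15 UMIs and 0, 0 and 1. The 0 UMIs of ginkgetin 1 and 2 allow up to 17.9 and 8.70 CPM (3 counts), so these libraries were not separated from vehicle 1 at this depth. In the largest sinusoidal-like sub-cluster, led by Plk2, Fos and Adam23, it was at 6.88, 4.12 and 20.0 CPM in vehicle and 1.54, 5.30 and 3.83 CPM in ginkgetin. The sub-clusters were made from these same cells and chosen after their values were seen, and they are given without a test.

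Hey1 in periportal-like cells was at 24.1, 22.5 and 53.3 CPM in vehicle and 7.10, 16.8 and 19.8 CPM in ginkgetin. Again no ginkgetin library reached a vehicle library, with a log2 fold change of -1.21 ± 0.39 that was not called (adjusted p = 0.547 by edgeR). Macrophage markers in periportal-like cells summed to 186.5 to 397 CPM in vehicle and 40.3 to 153.5 CPM in ginkgetin, mesothelial markers to 52.5 to 77.1 and 2.37 to 6.06 CPM, and their part was not tested. In vascular-like cells Hey1 was at 19.2, 16.7 and 46.8 CPM in vehicle and 25.2, 22.7 and 47.7 CPM in ginkgetin. The groups overlapped there, at a fold change of 0.17 (95% interval -0.79 to 1.12). A difference between the subsets was not tested.

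Dll1 showed lower mean levels in ginkgetin in each of the 4 subsets without a call. In periportal-like cells it was at 53.3, 45.0 and 46.3 CPM in vehicle and 11.8, 27.6 and 41.0 CPM in ginkgetin, which did not overlap. On the log2 scale this was a change of -0.92 ± 0.36 (adjusted p = 0.645 by edgeR). In sinusoidal-like cells vehicle was at 19.1, 19.1 and 19.9 CPM and ginkgetin at 13.9, 13.8 and 19.3 CPM, and ginkgetin 3 lay within the vehicle range. The fold change was -0.49 ± 0.19 (adjusted p = 0.300).

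Jag1 in vascular-like cells was at 295, 296 and 472 CPM in vehicle and 378, 548 and 420 CPM in ginkgetin. The groups overlapped, at a log2 fold change of 0.36 (95% interval -0.32 to 1.05). Dll4 and Notch1 had fold changes between -0.34 and 0.45 in the 4 subsets, and no interval of the fit without a block excluded 0. Dll4 in vascular-like cells was at 155, 139 and 312 CPM in vehicle and 257, 199 and 383 CPM in ginkgetin, higher in ginkgetin for each replicate number. With the replicate block 2 of the 7 members tested in vascular-like cells had an unadjusted p under 0.05 by edgeR, and none was called. Hes1 was higher in each ginkgetin library than in each vehicle library in sinusoidal-like cells (361, 375 and 382 against 558, 694 and 517 CPM), at a fold change of 0.50 ± 0.24 (adjusted p = 0.402 by edgeR), which the replicate block put at 0.47 ± 0.13 (adjusted p = 0.0434) and below a fold of 2.

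In macrophage-like cells Notch1 rose with ginkgetin. It was at 15.8, 13.5 and 21.3 CPM in vehicle and 27.1, 67.0 and 70.8 CPM in ginkgetin, from 716 and 221 UMIs. Each ginkgetin library lay above each vehicle library, and ginkgetin 1 was the nearest. The log2 fold change was 1.27 ± 0.30 (95% interval 0.56 to 1.99, adjusted p = 0.0404 by edgeR), and 1.26 ± 0.25 (adjusted p = 0.00492) with the replicate block. With 9.48% of all genes called in this class, a call was common here. The call was lost without vehicle 1, without vehicle 2 and without each ginkgetin library in turn, where the adjusted p reached 0.199 at a fold change of 1.05 to 1.47, and it remained without vehicle 3 (adjusted p = 0.0473). It was also lost, at 1.11 and an adjusted p of 0.0836, where the study's range for cells was applied to UMIs and not to genes per cell, and at 1.23 and an adjusted p of 0.0738 with no filter on genes. Classes outside these tests also had higher Notch1 means in ginkgetin. T cell-like cells were at 47.1 CPM in vehicle and 75.5 in ginkgetin, and plasma cell-like cells at 6.20 and 29.3. NK cell-like cells, with 2 libraries a group, were at 27.7 and 49.95 CPM. The groups did not overlap in these classes. They overlapped in monocyte-like (20.9 and 39.1 CPM) and B cell-like cells (6.69 and 16.2 CPM).

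Endothelial RNA moved with the Notch1 result in macrophage-like cells. The summed level of the 9 endothelial markers in macrophage-like cells was 179 to 208 CPM in vehicle and 869 to 1605 CPM in ginkgetin, and none of the 9 was at 0. Relative to the endothelial-like cells of the same library, the markers were at 2.61%, 2.05% and 1.63% in vehicle and 6.82%, 12.6% and 5.75% in ginkgetin. Notch1 was at 5.49%, 4.86% and 4.43% of its endothelial level in vehicle and 7.79%, 19.9% and 13.9% in ginkgetin, above the markers in each library. In macrophage-like cells without a UMI of any endothelial marker (434, 303 and 458 cells in vehicle, 13, 11 and 73 in ginkgetin) the Notch1 fold change was 1.31 ± 0.66 and was not called (adjusted p = 0.316 by edgeR). The part of endothelial RNA in the result was not tested beyond this. Markers of other cell types also differed: plasma cell markers summed to 39.4 to 121 CPM in vehicle and 153 to 638 CPM in ginkgetin, and T cell markers to 4.73 to 9.26 and 34.5 to 51.5 CPM (7 markers each, none at 0). Median depth was 10597.5 UMIs per macrophage-like cell in vehicle and 2309 in ginkgetin. Shares of macrophage-like cells with a Notch1 UMI were 1.46% ± 0.837 and 6.36% ± 1.70 after thinning, which left out 2 and 58 cells, and 17.0% and 15.9% without it. Other classes low in Notch1 were at 1.73% and 1.61% (cholangiocyte-like, median depths 8034.5 and 6345 UMIs) and at 0.822% and 1.73% (B cell-like, 2776 and 2053 UMIs) after thinning. The vehicle share lay between these and cannot be told apart from background.

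The macrophage-like cells of the 2 groups also came from different clusters. Vehicle 1 and 2 lay almost wholly in a cluster with high Fabp7 and Folr2 (56.6% and 56.8%) and one with high Ms4a7, Trem2 and Gpnmb (43.3% and 42.9%), and ginkgetin 1 and 2 lay mostly in a cluster with high Cxcl13, Cd163 and Marco (77.0% and 73.1%). Vehicle 3 was divided between a cluster with high Cd300c2 and Cxcl2 (64.9%) and one with high Mmp12 and Clec4f (34.1%), and ginkgetin 3 lay in a cluster with high Marco, Cd163 and Timd4 (92.6%). Within the Ms4a7 and Trem2 cluster, Notch1 was at 12.3 and 11.97 CPM in vehicle 1 and 2 and at 22.1 (21 cells, 3 UMIs) and 63.8 CPM (63 cells, 22 UMIs) in ginkgetin 1 and 2. Within the Cd300c2 cluster it was at 16.4 CPM in vehicle 3 and 51.8 CPM (37 cells, 17 UMIs) in ginkgetin 3. In the Marco and Timd4 cluster it was at 68.5 CPM in vehicle 3 (12 cells, 4 UMIs) and 73.7 CPM in ginkgetin 3. The ginkgetin values were the higher ones within the first 2 clusters and near vehicle in the last, from 1 or 2 libraries a group and without a test. Endothelial markers within the Ms4a7 and Trem2 cluster also differed, at 71.2 and 70.1 CPM in vehicle and 375 and 1236 CPM in ginkgetin.

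**Figure D4:**
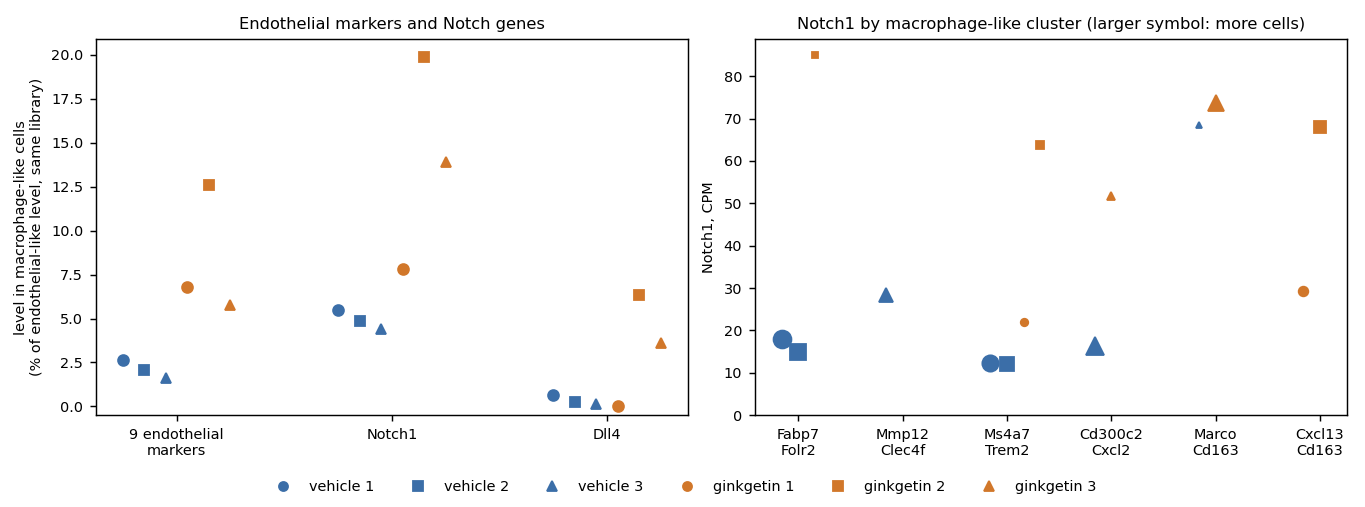
Left, level in macrophage-like cells as a percentage of the level in endothelial-like cells of the same library, for the summed 9 endothelial markers, Notch1 and Dll4. Right, Notch1 CPM (linear axis) in each macrophage-like cluster, named by leading genes, with larger symbols for more cells. Blue is vehicle, orange is ginkgetin, and symbols mark replicates. The markers and Notch1 are higher in the 3 ginkgetin libraries than in the 3 vehicle libraries, and each cluster holds mostly cells of 1 group.

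Hes1 in macrophage-like cells was at 168, 149 and 85.2 CPM in vehicle and 273, 387 and 409 CPM in ginkgetin, from 4967 and 1323 UMIs. The groups did not overlap. The log2 fold change of 0.94 ± 0.32 was not called (adjusted p = 0.0978 by edgeR), whereas the replicate block gave 1.02 ± 0.25 (adjusted p = 0.0117) and a call. Immediate early genes in these cells were at 1426, 2061 and 4696 CPM in vehicle and 3101, 3987 and 6120 CPM in ginkgetin, higher in ginkgetin for each replicate number, and their part was not tested. The shares of cells with a Hes1 UMI after thinning were 11.3% ± 3.27 in vehicle and 30.3% ± 3.30 in ginkgetin, and 45.7% and 50.9% without thinning, against 0.602% and 0.798% of T cell-like cells after thinning. Within the Ms4a7 and Trem2 cluster Hes1 was at 113 and 82.3 CPM in vehicle 1 and 2 and 221 and 223 CPM in ginkgetin 1 and 2, and within the Cd300c2 cluster at 63.7 CPM in vehicle 3 and 113 CPM in ginkgetin 3. Ginkgetin was the higher in each of these pairs. In cells without an endothelial marker UMI the fold change was 0.61 ± 0.42 (adjusted p = 0.481).

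Hey1 went the other way in macrophage-like cells, at 22.0, 20.2 and 16.0 CPM in vehicle and 0, 10.8 and 14.3 CPM in ginkgetin, from 748 and 40 UMIs. No ginkgetin library reached a vehicle library, and ginkgetin 1 held 0 UMIs, which allows up to 7.38 CPM (3 counts), for counting error only. On the log2 scale the change was -1.498 ± 0.55 (adjusted p = 0.121 by edgeR), and -1.30 ± 0.41 (adjusted p = 0.0384) with the replicate block, where it was called. The level differed between clusters of vehicle cells, at 29.96 and 30.8 CPM in the Fabp7 and Folr2 cluster of vehicle 1 and 2 and 9.11 and 9.05 CPM in their Ms4a7 and Trem2 cluster. Few ginkgetin cells lay in the Fabp7 and Folr2 cluster, 5 and 10 in ginkgetin 1 and 2. Within the Ms4a7 and Trem2 cluster ginkgetin 1 held 0 Hey1 UMIs, which allows up to 22.1 CPM, and ginkgetin 2 held 1 (2.90 CPM). Within the Cd300c2 cluster Hey1 was at 11.8 CPM in vehicle 3, and ginkgetin 3 held 0 UMIs, which allows up to 9.14 CPM. In the Marco and Timd4 cluster Hey1 was at 17.1 CPM in vehicle 3 (1 UMI) and 16.9 CPM in ginkgetin 3. These are single libraries with few UMIs on one side, and no difference between the groups was read from them.

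Notch2 in macrophage-like cells was at 24.1, 24.3 and 22.2 CPM in vehicle and 36.9, 76.6 and 40.0 CPM in ginkgetin. The groups did not overlap, and the log2 fold change of 0.69 ± 0.33 was not called (adjusted p = 0.202 by edgeR). In cells without an endothelial marker UMI it was -0.47 ± 0.59 (adjusted p = 0.718), of the opposite sign. Dll4 did not pass edgeR's filter. It had 22 UMIs in vehicle and 25 in ginkgetin, or 0.802, 0.284 and 0.473 CPM against 0, 9.57 and 7.81 CPM. DESeq2, which kept it, called it at a log2 fold change of 3.06 ± 0.81 (adjusted p = 0.00203). At 0%, 6.35% and 3.62% of its endothelial level in ginkgetin 1 to 3, Dll4 lay below the summed endothelial markers there.

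The ginkgetin effects in endothelial-like and macrophage-like cells were set against each other in 1 edgeR fit with the library as a block. Of the 5 members that passed the filter in each class alone 1 was called, Notch1, beside 7.63% of the 9520 such genes and 7.42% of all genes of the joint fit. The effect on Notch1 in endothelial-like cells minus that in macrophage-like cells was -1.21 ± 0.29 on the log2 scale (adjusted p = 0.0244). It was not called in macrophage-like cells lacking an endothelial marker UMI (-0.85, adjusted p = 0.574), nor with the range applied to UMIs (-0.72, adjusted p = 0.315), nor without vehicle 1, vehicle 2, ginkgetin 2 or ginkgetin 3 (adjusted p from 0.0601 to 0.0877). With the highest doublet scores removed it was -0.96 (adjusted p = 0.0148), below a fold of 2. Dll4, Dll1 and Notch4 entered the joint fit through their endothelial counts alone, so no test of their difference is given.

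Cholangiocyte-like cells line bile ducts, where Jag1 and Notch2 have their known role. Their 8 cholangiocyte markers summed to 9309 to 12275 CPM in vehicle and 6910 to 7669 CPM in ginkgetin, and the 7 hepatocyte markers were also high, at 6106 to 13711 and 5824 to 9951 CPM. Of 4 members tested by edgeR 0 were called, with 2 at an unadjusted p under 0.05, and DESeq2 called 0. Jag1 was at 83.0, 96.2 and 96.1 CPM in vehicle and 173.5, 160 and 172 CPM in ginkgetin, from 241 and 361 UMIs. The groups were tight and far apart. The log2 fold change of 0.90 ± 0.20 (95% interval 0.45 to 1.35) had an unadjusted p of 0.00148 and an adjusted p of 0.149 by edgeR. With the replicate block it was 0.90 ± 0.21 at an adjusted p of 0.021, still below a fold of 2, so it was called in neither fit. In cells without an endothelial marker UMI it was 1.16 ± 0.27 (adjusted p = 0.438), where ginkgetin 2 kept 2 cells and was not entered. Shares of cells with a Jag1 UMI after thinning were 10.2% ± 2.60 in vehicle and 13% ± 2.57 in ginkgetin, which overlapped, and 47.8% and 60.2% without thinning.

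Notch2 in cholangiocyte-like cells was at 87.1, 96.2 and 48.8 CPM in vehicle and 111, 281 and 125 CPM in ginkgetin. Ginkgetin 2 was far above the rest, and the groups did not overlap. Its log2 fold change was 1.18 ± 0.42 (adjusted p = 0.302 by edgeR) and 1.11 ± 0.24 (adjusted p = 0.0129) with the replicate block, which called it. In cells without an endothelial marker UMI, with ginkgetin 2 not entered, it was 0.997 ± 0.33 (adjusted p = 0.469). Endothelial markers in cholangiocyte-like cells summed to 38.1 to 76.3 CPM in vehicle and 118 to 770 CPM in ginkgetin, and plasma cell markers to 59.2 to 94.6 and 100 to 490 CPM. The part of the plasma cell markers was not tested. Hes1 was at 556, 1335 and 487 CPM in vehicle and 1436, 946 and 788 CPM in ginkgetin. These values overlapped widely, with a fold change of 0.44 (-0.55 to 1.43), and Notch1 overlapped too at 0.17 (-0.81 to 1.15).

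Stellate-like cells could be compared in 2 vehicle and 3 ginkgetin libraries, because vehicle 1 held 6 such cells and was not entered. Of 5 members tested by edgeR 0 were called, with 2 at an unadjusted p under 0.05, and DESeq2 called 0. Notch3 was at 23.96 and 48.7 CPM in vehicle 2 and 3 (25 UMIs) and 18.9, 105 and 247 CPM in ginkgetin (107 UMIs). Ginkgetin 1, with 12 cells and 1 Notch3 UMI, lay below both vehicle libraries, so the groups overlapped. Its log2 fold change was 1.74 ± 0.73 (adjusted p = 0.695 by edgeR), and 2.16 ± 0.48 (adjusted p = 0.000689) with the replicate block, where it was called. In that fit ginkgetin 1 has no vehicle partner and adds nothing to the difference, so this call rests on 2 pairs. With the barcode set as a block, where ginkgetin 1 does enter, it was 2.05 ± 0.48 (adjusted p = 0.0101) and was called too, beside 2.95% of all genes. Notch1 was at 71.9 and 60.3 CPM in vehicle and 75.5, 129 and 240 CPM in ginkgetin, which did not overlap. Its fold change was 1.18 ± 0.48 (adjusted p = 0.694) and 1.41 ± 0.44 (adjusted p = 0.0461) with the block, which called it from the same 2 pairs, whereas the barcode set block did not (adjusted p = 0.0809). Endothelial markers in these cells summed to 120 and 241 CPM in vehicle and 189, 931 and 679 CPM in ginkgetin, and Notch1 stood at 25.8% and 12.5% of its endothelial level in vehicle and 21.7%, 38.3% and 47.3% in ginkgetin, above the markers in each library (1.35% to 7.32%). Other markers differed without overlap as well. Portal fibroblast markers summed to 335 to 1082 CPM in vehicle and 35.7 to 132 CPM in ginkgetin, smooth muscle markers to 791 to 957 and 434 to 695, macrophage markers to 299.5 to 315 and 55.2 to 150, and immediate early genes to 1833 to 3330 and 3867 to 6143 CPM. Hepatocyte markers summed to 343 to 425 CPM in vehicle and 48.7 to 279 in ginkgetin, and pericentral endothelial markers to 218 to 437 and 872 to 1270. The part of these in the Notch3 and Notch1 values was not tested.

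Dendritic-like cells gave 0 calls among 4 tested members by edgeR, with 2 at an unadjusted p under 0.05. DESeq2 called Notch1 alone. Notch1 was at 12.4, 15.3 and 10.6 CPM in vehicle and 25.8, 36.4 and 33.2 CPM in ginkgetin. The groups did not overlap, and the log2 fold change of 1.28 ± 0.26 had an adjusted p of 0.189 by edgeR and 0.0294 with the replicate block (1.27 ± 0.21), which called it. The makeup of the class varied: type 2 conventional dendritic (cDC2-like) cells were 285 of 496, 122 of 235 and 220 of 353 cells in vehicle and 55 of 145, 109 of 332 and 99 of 169 in ginkgetin. Within cDC2-like cells Notch1 was at 3.51, 4.26 and 14.7 CPM in vehicle and 6.54, 9.37 and 53.3 CPM in ginkgetin, which overlapped, and within cDC1-like cells at 8.40, 10.4 and 5.72 CPM in vehicle and 22.7, 24.7 and 13.7 CPM in ginkgetin, which did not. The pDC-like cells were at 53.5 and 59.98 CPM in vehicle 1 and 2 and 103.5 and 90.1 CPM in ginkgetin 1 and 2. The part of the makeup in the class's value was not tested beyond these. Notch2 was at 55.2, 67.8 and 53.5 CPM in vehicle and 93.2, 193 and 103 CPM in ginkgetin, with no overlap. Its fold change was 1.11 ± 0.35 (adjusted p = 0.226) and 1.02 ± 0.21 (adjusted p = 0.0432) with the block, which called it too, whereas the barcode set block (adjusted p = 0.0536) and DESeq2 (adjusted p = 0.0579) did not. Macrophage markers in dendritic-like cells summed to 431 to 611 CPM in vehicle and 153 to 269 CPM in ginkgetin. Plasma cell markers summed to 50.2 to 60.4 and 77.5 to 406 CPM, and the part of either list was not tested. Endothelial markers stood at 101 to 163 CPM in vehicle and 294 to 945 CPM in ginkgetin, and their part in these values was not tested beyond the fit on cells without a marker UMI, which gave 0.97 ± 0.57 for Notch1 and 0.95 ± 0.24 for Notch2 and called neither. There ginkgetin 2 kept 4 cells and was not entered. Hes1, at 13.9 to 26.8 CPM in vehicle and 17.9 to 29.0 CPM in ginkgetin, overlapped.

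The wider pathway was read from 61 further Notch genes, of which 60 were in the tables. In endothelial-like cells 0 of 48 tested were called by edgeR (7 at an unadjusted p under 0.05, 2 called by DESeq2), with a median log2 fold change of 0.05 against -0.01 over all genes. The replicate block called 3 there. In stellate-like (32 tested), cholangiocyte-like (43) and dendritic-like cells (48) edgeR called 0, at 0, 6 and 5 with an unadjusted p under 0.05, and DESeq2 called 0, 1 and 2. The block called 0, 1 and 2 there. Of all genes, edgeR called 0.689% in endothelial-like, 0.0195% in stellate-like, 0.176% in cholangiocyte-like and 0% in dendritic-like cells. The block called 4.17%, 3.04%, 2.45% and 2.06% in the same order, and DESeq2 2.56%, 0.544%, 1.31% and 1.99%.

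In macrophage-like cells 5 of 51 pathway genes rose and 1 fell, beside 9.48% of all genes called. DESeq2 called 8 of the 55 to which it gave an adjusted p, beside 13% of all such genes, and the block called 9 of 51, beside 15.2%. The median log2 fold change was 0.43, against 0.02 over all genes. By role, the calls were 1 of 1 further ligand, 1 of 5 glycosyltransferases, 1 of 17 genes of the nuclear complex and 2 of 4 further targets, which rose, and 1 of 10 cleavage genes, which fell. Egfl7, a secreted endothelial factor, rose from 6.20, 4.83 and 4.63 CPM to 46.8, 122 and 70.8 CPM, a log2 fold change of 3.495 ± 0.39 (adjusted p = 0.0125). Kat2b, a histone acetyltransferase of the nuclear complex, rose from 18.3, 20.5 and 22.6 CPM to 86.1, 87.4 and 83.6 CPM (1.63 ± 0.19, adjusted p = 0.0138). The groups did not overlap for either gene. Aph1c, a subunit of the gamma-secretase that cuts Notch, fell from 36.0, 35.3 and 49.7 CPM to 19.7, 21.5 and 26.7 CPM (-1.27 ± 0.19, adjusted p = 0.0167). The other 3, named after their values were seen, were the glycosyltransferase Lfng and the targets Nrarp and Efnb2. Both targets rested on few UMIs. Nrarp had 3, 2 and 9 UMIs in vehicle (0.219, 0.284 and 0.473 CPM) and 3, 4 and 7 in ginkgetin (7.38, 4.79 and 3.22 CPM). Efnb2 had 5, 5 and 4 UMIs in vehicle (0.365, 0.711 and 0.210 CPM) and 1, 10 and 9 in ginkgetin (2.46, 11.97 and 4.14 CPM). Egfl7, Nrarp and Efnb2 were far higher in endothelial-like than in macrophage-like cells, with Egfl7 at 877.5 to 1250 CPM there. Kat2b in endothelial-like cells was at 57.4, 68.4 and 68.8 CPM in vehicle and 98.9, 97.5 and 104.5 CPM in ginkgetin, without overlap or a call. Aph1c was low in endothelial-like cells, at 1.17 to 2.65 CPM. In cells without an endothelial marker UMI 2 pathway genes were called in this class, beside 1.11% of all genes.

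In the sinusoidal-like subset 1 of 48 pathway genes was called, and 0 of 40 in pericentral-like, 0 of 41 in periportal-like and 0 of 40 in vascular-like cells (4, 4 and 3 at an unadjusted p under 0.05; DESeq2 called 2, 0 and 0, and the block 2, 1 and 1). The gene called was Myc, a growth regulator and target of Notch and of other signals, which fell from 47.1, 35.9 and 95.6 CPM in vehicle to 10.8, 9.32 and 9.19 CPM in ginkgetin. Each ginkgetin library lay far below each vehicle library. The log2 fold change was -2.74 ± 0.32 (adjusted p = 0.0295 by edgeR). DESeq2 called 1 and the block 2 pathway genes in this subset. Of all genes, edgeR called 0.978% in sinusoidal-like, 0.0829% in pericentral-like, 0.0134% in periportal-like and 0% in vascular-like cells. The block called 4.78%, 3.47%, 1.95% and 1.2% in the same order, and DESeq2 2.47%, 0.848%, 0.852% and 0.411%. Between endothelial-like and macrophage-like cells the ginkgetin effects on 7 of the 48 pathway genes tested in each class differed, beside 7.63% of all such genes, each lower in endothelial-like cells, and the 3 with the lowest adjusted p were Egfl7 (-3.42 ± 0.39, adjusted p = 0.000765), Myc (-2.86 ± 0.45, adjusted p = 0.00327) and Dtx3, a ubiquitin ligase of the Deltex family (-1.52 ± 0.25, adjusted p = 0.00424).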

How the data were processed

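Single-cell RNA sequencing of nonparenchymal liver cells was deposited as 1 table of raw UMI counts per gene and barcode for each of 6 libraries (3 vehicle, 3 ginkgetin). The authors' notes name GRCm38/mm10, and the aligner, counter and annotation are not given in the sources used here. The labels describe a bulk library kit, whereas description and barcodes are 10x. The study states a Seurat 4.3.0 filter of 250 to 5000 UMIs and under 5% mitochondrial genes. Because the median depth of a library reached 8412 UMIs per kept cell, the range was applied to genes per cell, with UMIs per cell as an alternative. The filter kept 27544 of 33168 barcodes, and no doublets were removed.

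Cells were clustered with scanpy 1.11.5 (2000 variable genes without Notch genes, 30 principal components, 15 neighbours, Leiden resolution 1). A cluster was named where at least 3 markers of a list were found in 25% of its cells at a fold over 2 (1.5 for endothelial subsets), and 1771 cells stayed unnamed. These thresholds, the sub-clusters and the immediate early genes were chosen after the data were seen, and the members and lists were chosen with earlier results of these data known. Counts were summed per library and class (10 or more cells) and tested by edgeR 4.0.16 (TMM, filterByExpr, quasi-likelihood), with Benjamini-Hochberg adjustment over all genes of the class, an adjusted p under 0.05 and a fold over 2. The test was checked on simulated counts. DESeq2 1.42.0, RLE scaling, other cell filters and clusterings, no gene filter, left-out libraries and blocks were alternatives. Besides the members, the text names the 3 genes most like each member in profile and the 3 pathway genes with the lowest adjusted p among those called in a comparison. For the replicate block, libraries were paired by replicate number, a pairing that the labels do not state. Deviations of same-numbered libraries from their group means correlated at 0.414 to 0.909 in endothelial-like, cholangiocyte-like, macrophage-like and dendritic-like cells. Vehicle 2 correlated more with another ginkgetin library in endothelial-like and cholangiocyte-like cells. Replicate 3 coincides with the separate barcode set. Where replicate 3 stands apart in both groups, the other replicates of each group deviate the opposite way. These correlations therefore cannot decide whether the libraries were paired. Stellate-like cells, with 5 libraries, were not checked. Cells were thinned to 1000 UMIs for shares. Ranges of depth are given with the results, limits of detection cover counting error only, and 95% intervals of fold changes come from the spread between libraries.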

Additional observations from a re-analysis of the deposited data

Results flagged for a closer look

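The ginkgetin effect on Notch1 differed between endothelial-like and macrophage-like cells by the test of the difference itself, an edgeR fit with the library as a block. The effect in endothelial-like minus that in macrophage-like cells was -1.21 (log2, SE 0.29, adjusted p = 0.0244). Notch1 was also higher in ginkgetin without overlap in stellate-like, dendritic-like, T cell-like, NK cell-like and plasma cell-like cells. Endothelial markers summed to 179 to 208 CPM in the macrophage-like cells of vehicle libraries and 869 to 1605 CPM in those of ginkgetin libraries, and in cells without a UMI of these markers the difference was not called. It was also not called without vehicle 1, vehicle 2, ginkgetin 2 or ginkgetin 3 in turn (adjusted p 0.0601 to 0.0877), with the range applied to UMIs (-0.72, adjusted p = 0.315) or with the highest doublet scores removed (-0.96, below a fold of 2).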

How the results depend on the processing

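The 36 fold changes followed here are those of members printed in the report or with an unadjusted p under 0.05. Of their 608 values under alternatives 564 kept their direction, and over all 57 member tests 82 of 948 values took another direction. In 0 of these was the gene called in either fit. Among the 36, Notch2 in macrophage-like cells went from 0.69 to -0.47 in cells without an endothelial marker UMI. With replicates 1 and 2 alone, Dll4 was at 0.148 in endothelial-like, 0.047 in sinusoidal-like and 0.527 in pericentral-like cells and Jag1 at 0.005 in endothelial-like cells, where the reported values are below 0. With the range applied to UMIs per cell, Jag1 in endothelial-like cells was at 0.017, and Dll4 at 0.039 in sinusoidal-like and 0.115 in pericentral-like cells. In periportal-like cells Dll4 and Notch1, reported at 0.025 and 0.005, were at -0.072 and -0.028 with no filter on cells, -0.033 and -0.050 with the highest doublet scores removed, -0.132 and -0.126 with Notch genes kept in clustering, -0.045 and -0.069 with each library clustered alone, and -0.131 and -0.082 with coarser sub-clusters, while Notch1 was at -0.023 with RLE size factors, -0.022 by DESeq2 and -0.001 with the barcode set block. Hey1 in vascular-like cells, reported at 0.168, was at -0.088 with no filter on cells, -0.083 with the highest doublet scores removed, -0.303 with Notch genes kept in clustering and -0.459 with coarser sub-clusters. Without 1 library at a time, values crossed 0 for Jag1 (-0.658 to 0.075), Dll4 (-0.311 to 0.207) and Notch1 (-0.013 to 0.202) in endothelial-like cells, Notch1 in cholangiocyte-like cells (-0.065 to 0.488), Dll4 in sinusoidal-like (-0.275 to 0.082), pericentral-like (-0.353 to 0.466) and periportal-like cells (-0.231 to 0.586), Notch1 in periportal-like cells (-0.102 to 0.124) and Hey1 in vascular-like cells (-0.174 to 0.699).

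Calls among the members in 5 classes, 1 as reported, were 4 by DESeq2, 9 with the replicate block, 7 with the barcode set as a block, 0 with no filter on genes, 0 with the range applied to UMIs per cell (12 members in 3 classes) and 0 in cells without an endothelial marker UMI, an alternative added after seeing the data. Leaving out 1 library gave 0 to 1 calls, with 1 only without vehicle 3. Calls in the endothelial subsets, 0 as reported, were 1 with no filter on cells, with the highest doublet scores removed, with Notch genes kept in clustering, with each library clustered alone, by DESeq2, with the replicate block and with the barcode set block, each time Hey1 in sinusoidal-like cells, and 0 to 0 without 1 library. Calls of the difference between endothelial-like and macrophage-like cells were 1 of the 5 members tested in each class alone, Notch1. Under alternatives they were 0 with the range applied to UMIs, 0 with the highest doublet scores removed, 0 in cells without an endothelial marker UMI and 0 to 1 without 1 library (0 without vehicle 1, vehicle 2, ginkgetin 2 or ginkgetin 3). The causes were not tested.

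Of 294 values of the 49 member levels of at least 10 CPM under other clusterings, 20 moved by over 1.5 times. Beside those in the report, Hes1, Notch1 and Jag1 in stellate-like cells were at 175, 66.6 and 51.0 CPM with no filter on cells. With the range applied to UMIs, Notch2 was at 229.5 CPM in cholangiocyte-like and 93.2 in stellate-like cells, Notch1 at 28.5 in cholangiocyte-like and 43.7 in dendritic-like cells, Hey1 at 5.84 in endothelial-like and 17.1 in vascular-like cells, Notch4 at 30.8 in periportal-like and Hes1 at 14.7 in dendritic-like cells. Jag1 in sinusoidal-like cells was at 9.21 CPM with the highest doublet scores removed, and Dll4 in pericentral-like cells at 65.2 with each library clustered alone, where Dll4 remained lower there than in sinusoidal-like cells in 6 of 6 libraries and Hes1 in 5 of 6.

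The replicate block, which pairs libraries of the same number, raised the calls from 1 to 9 in the 5 classes and from 0 to 1 in the subsets, and the share of all genes called rose too, for example from 0.689% to 4.17% in endothelial-like and from 9.48% to 15.2% in macrophage-like cells. The values of these genes stand beside their results, and it changed no other member's call. Few cells limit the stellate-like class, where ginkgetin 1 held 12 cells, and the macrophage-like cells without endothelial UMIs, where ginkgetin 2 held 11.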

Other observations

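Notch2 was highest in the ginkgetin 2 library in 14 of 14 classes and subsets in which the gene reached 10 CPM in at least 1 library, with the endothelial-like cells counted by subset and, in hepatocyte-like cells, from 1 UMI in 11 cells. Notch4 was lowest in the same library in 4 of 6 such classes and subsets. Within periportal-like cells Jag1 differed between the 2 sub-clusters, at 178 ± 55.0 CPM (SD, n = 6) in the one led by Igfbp5 and Adgrg6, which Jag1 also leads, and 69.6 ± 31.3 CPM in the other, led by Msr1 and Ntn4. The sub-clusters were made from these cells, and no test was run.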
